A study of Mus musculus with 23 samples.

Results

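The genes described here are 7 transporters of the hepatocyte surface, matched by symbol in a table of 27179 genes: Slc10a1, Slco1a1, Slco1a4, Slco1b2, Slco2b1, Slc22a7 and Slc51b. The 7 were chosen as genes of bile acid and organic anion handling, with earlier results of these data known, and 7 of 7 symbols were found. Their read counts were compared in liver tissue free of visible tumors from 15 female mice. All mice carried the Alb-Cre transgene, which recombines floxed alleles in cells that express the albumin promoter, mainly hepatocytes, and all had both Trp53 alleles floxed (TRP53 flx/flx), the Ctrl mice included. Ctrl mice (n = 6) had wild-type Braf and 1 floxed Icmt allele (ICMT flx/+). ABpIF/+ mice (n = 6) carried the BrafCA/+ allele, from which Cre produces BrafV600E, with the same ICMT flx/+ genotype. ABpIF/F mice (n = 3) carried BrafCA/+ with both Icmt alleles floxed (ICMT flx/flx). Icmt encodes the enzyme that methylates the carboxyl end of prenylated proteins such as Ras. The genotype labels write BRAF +/+ for both ABpI groups, and the Braf allele given here is that of the series design. No treatment is labelled, ages are not in the labels, and the study describes the ABpIF/F mice as few and of different ages. The strain label names an additional cross with a Braftm1Mmcm line for all ABpI mice and for 1 Ctrl mouse (BG3), and lacks it for the other 5 Ctrl mice.

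Hepatocytes take up bile acids, hormones, bilirubin and many drugs from portal blood across their sinusoidal membrane. Slc10a1 encodes the sodium-driven bile acid carrier NTCP, and the Slco genes encode organic anion transporting polypeptides (OATPs), sodium-independent carriers of bile acids, steroid and thyroid conjugates and bilirubin. Slc22a7 encodes the organic anion transporter OAT2, while Slc51b encodes the small subunit of OSTalpha-OSTbeta, an exporter that returns bile acids from the cell to blood and needs its partner Slc51a. In mouse liver Slco1a1 is a classical male-predominant gene and Slco1a4 a female-predominant one that the xenobiotic receptor PXR can induce.

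Gene counts summed to between 24742910 and 32262649 a mouse. Icmt, the targeted gene, averaged 30.8 CPM in Ctrl, 32.7 in ABpIF/+ and 15.9 in ABpIF/F livers. CPM are counts scaled by library size and by edgeR's TMM factors, which ran from 0.846 to 1.24. The 15 hepatocyte markers had reads in every group, with summed levels of 133000 to 172800 CPM in Ctrl, 221500 to 293800 in ABpIF/+ and 174900 to 275100 in ABpIF/F livers. Alb made up most of these sums, with means of 89160, 153800 and 144100 CPM. Calls among the 15 markers went in both directions, as counted below. One Ctrl mouse, malpa387, stood apart from the other 5 in its clock genes. Its clock score, the mean log2 level of 5 positive-arm genes minus that of 11 negative-arm genes, was 3.37 against -1.95 to -0.998 in the other Ctrl mice. ABpIF/+ mice scored -1.41 to -0.57 and the 3 ABpIF/F mice 2.41 to 4.76, so the clock score moved with the ABpIF/F group. Sampling times are not given in the labels. ABpIF/+ and Ctrl mice differ by genotype in the Braf allele, and the ABpI groups in the second Icmt allele. Neither comparison isolates its allele. The strain label sets ABpIF/+ apart from most Ctrl mice, and the clock score sets the ABpI groups apart. The study also describes weight loss and illness in ABpIF/+ mice and not in ABpIF/F mice. ABpIF/F and Ctrl mice differ in both the Braf and the Icmt alleles, so their comparison does not separate the 2. For the 7 genes, calls lost without malpa387, or with the clock score or the strain label as a covariate, are given with those values. Other genes were not fitted with these covariates.

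In Ctrl livers the 7 genes differed widely in level. Per kilobase of exon, Slc10a1 was highest at 346 CPM per kb (235 to 376) and Slco1b2 next at 199 (147 to 250). Their ranges overlapped, but Slc10a1 was the higher of the pair in 6 of 6 mice. Slco2b1 at 35.1, Slco1a4 at 31.5 and Slco1a1 at 24.7 CPM per kb followed, and the ranges of these neighbours overlapped. Slc22a7 averaged 16.7 CPM per kb, within the range of Slco1a1, and Slc51b was last at 0.940. Per-length levels use exon lengths of GENCODE M21, which may differ from the annotation used for counting. In 6 of the 7 genes the mean over all mice was above 1 CPM, the exception being Slc51b.

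**Figure D1:**
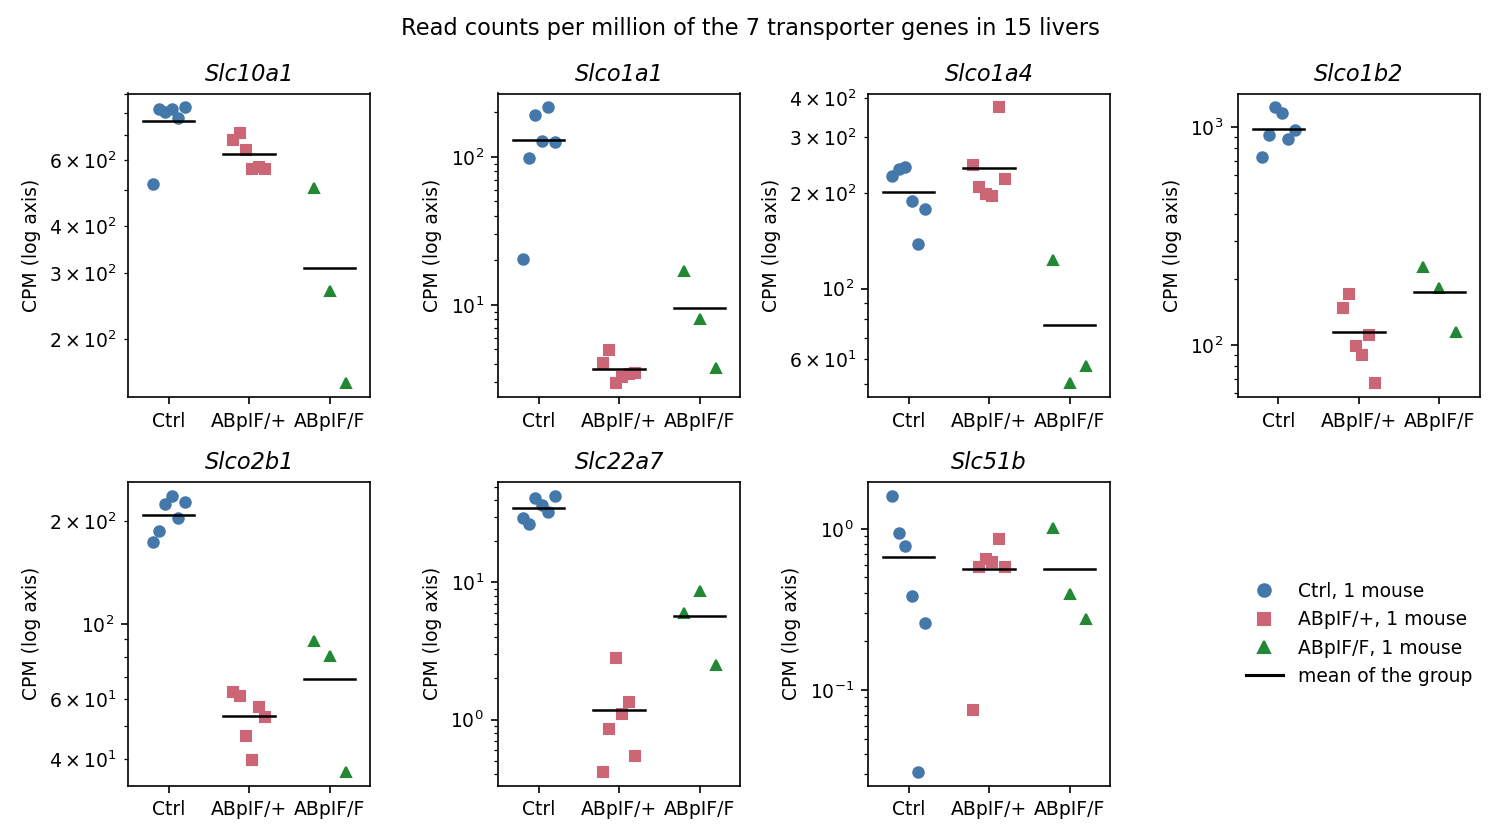
CPM of each of the 7 genes (log axis) in Ctrl (circles), ABpIF/+ (squares) and ABpIF/F (triangles) livers, 1 point a mouse, with a line at the group mean. For Slco1a1, Slco1b2, Slco2b1 and Slc22a7 every ABpI mouse lies below every Ctrl mouse, while for Slc10a1 and Slco1a4 only the ABpIF/F mice do.

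Slc10a1 (chr12:80953183-80968705, minus strand, GRCm38), the main sodium-dependent bile acid carrier, was close to Ctrl in ABpIF/+ livers and lower in ABpIF/F livers. The Ctrl mice had 517, 821, 804, 820, 774 and 827 CPM. The ABpIF/+ mice had 678, 708, 636, 566, 573 and 565 CPM. The ABpIF/F mice had 506, 268 and 153 CPM. Of the Ctrl mice, malpa387 was lowest, inside the range of neither ABpI group, and without it the ABpIF/+ and Ctrl mice would not overlap. In ABpIF/+ vs Ctrl the log2 fold change was -0.29 (SE 0.20, 95% interval -0.71 to 0.12, edgeR adjusted p = 0.354), and without malpa387 it was -0.38 (adjusted p = 0.195), short of the threshold in both fits. In ABpIF/F vs Ctrl Slc10a1 fell by 1.30 on the log2 scale (SE 0.26, edgeR adjusted p = 9.46e-04), to 40.6% of the Ctrl mean. BG38 weighs on that value: without it the log2 fold change was -0.98, under the 2-fold threshold. The call was also lost without BG90 (-1.21, edgeR adjusted p = 0.0107), with the strain label as a covariate (-1.41, adjusted p = 0.0232) and with the clock score (-0.70, adjusted p = 0.268). In total it was lost in 6 of 27 alternatives. The Ctrl mouse with a clock score in the ABpIF/F range, malpa387, had 517 CPM, near the 506 of the ABpIF/F mouse BG183.

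Slco1a1, Slco1a4 and Slco1b2 are neighbours in the Slco1 cluster of chromosome 6. Slco1a1 and Slco1b2 were called lower in both ABpI groups vs Ctrl, and Slco1a4 in ABpIF/F vs Ctrl. Slco1b2 lies at chr6:141629518-141686646 on the plus strand, Slco1a4 at chr6:141805440-141856199 and Slco1a1 at chr6:141907282-141946962 on the minus strand (GRCm38). Slco1b2 encodes OATP1B2, a liver carrier of bilirubin, bile acids and statins. Its level was 727, 917, 1233, 1166, 881 and 970 CPM in the Ctrl mice. In the ABpIF/+ mice it was 149, 172, 98.9, 90.1, 111 and 66.8 CPM, and in the ABpIF/F mice 227, 182 and 114 CPM. Every ABpI mouse lay below every Ctrl mouse, and the ABpI groups overlapped each other. Slco1b2 fell by 3.10 on the log2 scale in ABpIF/+ vs Ctrl (SE 0.23, edgeR adjusted p = 1.88e-09), an 8.57-fold difference of the means. It fell by 2.49 in ABpIF/F vs Ctrl (SE 0.29, edgeR adjusted p = 3.06e-06), and of the 7 genes it alone passed the threshold of that comparison under all 27 alternative settings. The difference between the ABpI groups was -0.61 (95% interval -1.13 to -0.09) and did not pass the threshold (edgeR adjusted p = 0.106).

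Slco1a1 encodes OATP1A1, a carrier of steroid sulfates and bile acids. The Ctrl mice had 20.5, 99.0, 193, 128, 216 and 125 CPM, the lowest again being malpa387. The ABpIF/+ mice had 4.04, 4.91, 2.94, 3.24, 3.42 and 3.48 CPM, within a narrow range. The ABpIF/F mice had 16.9, 8.00 and 3.74 CPM. No ABpI mouse reached a Ctrl mouse, although BG183 came near malpa387. Slco1a1 fell by 5.15 on the log2 scale in ABpIF/+ vs Ctrl (SE 0.55, edgeR adjusted p = 1.15e-05), with a 35.5-fold higher mean in Ctrl, more than for any other of the 7 genes. It fell by 3.77 in ABpIF/F vs Ctrl (SE 0.69, edgeR adjusted p = 0.00172). That call was lost in 5 of 27 alternatives. Among them were the fits without BG90 or BG38 (edgeR adjusted p = 0.0125 and 0.0117) and with the strain label as a covariate (-3.38, adjusted p = 0.0293). With the clock score as a covariate the log2 fold change of ABpIF/F vs Ctrl was -1.33 (edgeR adjusted p = 0.213), whereas that of ABpIF/+ vs Ctrl was -5.06 (edgeR adjusted p = 8.26e-08). The ABpI groups overlapped, with a difference of -1.37 (95% interval -2.62 to -0.12, edgeR adjusted p = 0.133), which became -3.73 and passed the threshold in the fit with the clock score (edgeR adjusted p = 0.00648).

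Slco1a4 encodes OATP1A4, a carrier of bile acids and cardiac glycosides. The Ctrl mice had 227, 238, 243, 190, 139 and 178 CPM. The ABpIF/+ mice had 245, 209, 199, 196, 373 and 221 CPM, BG175 being the highest of all. The ABpIF/F mice had 123, 50.2 and 56.9 CPM, below every mouse of both other groups. In ABpIF/+ vs Ctrl the log2 fold change was 0.25 (SE 0.21, 95% interval -0.20 to 0.70, edgeR adjusted p = 0.500). In ABpIF/F vs Ctrl Slco1a4 fell by 1.40 (SE 0.28, edgeR adjusted p = 0.00135), and in ABpIF/+ livers it stood at 314% of the ABpIF/F mean (log2 fold change 1.65, SE 0.28, edgeR adjusted p = 4.27e-04). Both calls were lost with the clock score as a covariate, at log2 fold changes of -1.28 (edgeR adjusted p = 0.0485) and 1.51 (adjusted p = 0.0354). The call of ABpIF/F vs Ctrl was also lost with the strain label (-1.63, edgeR adjusted p = 0.0188) and without BG90 or BG38 (adjusted p = 0.0113 and 0.0194). In malpa387, whose clock score lay among those of the ABpIF/F mice, Slco1a4 was 227 CPM, within the range of the other Ctrl mice. The ratio of Slco1a4 to Slco1a1 counts was 0.641 to 11.1 in Ctrl and 42.5 to 109 in ABpIF/+ mice. In ABpIF/F mice, where both genes were called lower than in Ctrl, it was 6.28 to 15.2 and overlapped that of Ctrl. Slco1a5, Slco1a6, Slco1a7, Slco1a8 and Slco1c1, the other genes of the cluster, had at most 9 counts in any mouse, and no direction is given for them.

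The promoters of these neighbours and the first of 2 for Slc10a1 are shown because Slco1b2 and Slco1a1 were called lower in both ABpI groups vs Ctrl, while Slco1a4 and Slc10a1 were called in ABpIF/F vs Ctrl and not in ABpIF/+ vs Ctrl. Each is the RefSeq sequence (GRCm38.p6) from 250 bases before to 50 bases after a start site, read 5′ to 3′ on the gene's own strand. RefSeq gave entries for 6 of the 7 genes, 9 start sites in all, and none for Slc22a7. Capitals mark matches to any of 9 motifs searched on both strands, of which several share letters: GTTAAT (one arm of the HNF1 site), its inverted pair GTTAATNATTAAC, AGGTCA (one arm of a nuclear receptor site), its inverted repeat AGGTCANTGACCT, its direct repeats AGGTCANAGGTCA and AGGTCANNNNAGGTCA, TTATGTAA (the D-box), CACGTG (the E-box) and TTCNNNGAA (a STAT5 site). The paired forms were allowed 2 mismatches and the D-box 1.
Slco1b2, chr6:141629268-141629567, plus strand: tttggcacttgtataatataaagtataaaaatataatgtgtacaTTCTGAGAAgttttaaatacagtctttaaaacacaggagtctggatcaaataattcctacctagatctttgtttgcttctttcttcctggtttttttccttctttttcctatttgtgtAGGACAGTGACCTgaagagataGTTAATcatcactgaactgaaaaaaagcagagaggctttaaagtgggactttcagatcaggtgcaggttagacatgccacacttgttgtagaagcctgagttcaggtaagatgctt
Slco1a4, chr6:141856171-141856470, minus strand: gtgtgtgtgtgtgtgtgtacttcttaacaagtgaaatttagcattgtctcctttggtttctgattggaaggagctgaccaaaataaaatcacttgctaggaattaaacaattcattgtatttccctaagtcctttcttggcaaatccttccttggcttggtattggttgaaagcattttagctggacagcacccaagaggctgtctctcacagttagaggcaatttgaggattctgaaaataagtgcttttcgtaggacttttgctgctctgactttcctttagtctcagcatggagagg
Slco1a1, chr6:141946913-141947212, minus strand: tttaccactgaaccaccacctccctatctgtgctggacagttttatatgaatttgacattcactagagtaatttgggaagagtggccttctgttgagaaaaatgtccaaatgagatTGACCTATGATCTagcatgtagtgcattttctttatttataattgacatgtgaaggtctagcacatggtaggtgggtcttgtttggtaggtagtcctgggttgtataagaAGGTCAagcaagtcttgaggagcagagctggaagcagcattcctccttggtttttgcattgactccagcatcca
Slc10a1, chr12:80968656-80968955, minus strand: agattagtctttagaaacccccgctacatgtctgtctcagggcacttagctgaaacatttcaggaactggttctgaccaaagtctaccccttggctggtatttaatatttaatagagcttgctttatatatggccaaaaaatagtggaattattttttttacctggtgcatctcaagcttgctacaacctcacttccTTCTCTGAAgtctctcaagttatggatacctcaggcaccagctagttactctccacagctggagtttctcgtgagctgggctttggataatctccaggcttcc
The Slco1b2 promoter held a GTTAAT beginning 66 bases before the start site, an inverted repeat with 1 mismatch beginning 88 bases before it, and a STAT5 site beginning 206 bases before it. The Slco1a1 promoter held a direct repeat with a spacer of 1 and 1 mismatch, beginning 134 bases before the start site, and a single AGGTCA beginning 24 bases before it. The first Slc10a1 promoter held a STAT5 site beginning 53 bases before the start site. The other Slc10a1 entry (chr12:80968030-80968329), not shown, held an AGGTCA beginning 87 bases before its start site and a D-box with 1 mismatch beginning 4 bases before it. The Slco1a4 promoter held none of the 9 motifs. Of 32851 promoters of this length in the table, 7.10% held GTTAAT, 1.36% its inverted pair, 16.3% AGGTCA, 1.14% the inverted repeat, 3.86% the direct repeat with a spacer of 1, 3.02% that with a spacer of 4, 16.1% the D-box, 7.15% the E-box and 8.30% the STAT5 site. A match is a description of letters, and a motif not found is only not within this window.

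Slco2b1 (chr7:99657804-99711340, minus strand) encodes OATP2B1, a carrier of sulfated steroids found in liver and gut. The Ctrl mice had 174, 187, 225, 238, 205 and 227 CPM. The ABpIF/+ mice had 63.1, 61.5, 46.9, 39.7, 57.2 and 53.2 CPM, and the ABpIF/F mice 89.0, 80.6 and 36.8 CPM. Both ABpI groups lay below all Ctrl mice and overlapped each other. Slco2b1 fell by 1.97 on the log2 scale in ABpIF/+ vs Ctrl (SE 0.17, edgeR adjusted p = 1.71e-08) and by 1.61 in ABpIF/F vs Ctrl (SE 0.22, edgeR adjusted p = 1.87e-05). The call of ABpIF/F vs Ctrl was lost with the clock score as a covariate (-1.37, edgeR adjusted p = 0.0105). Between the ABpI groups the log2 fold change was -0.36 (95% interval -0.78 to 0.06, edgeR adjusted p = 0.277).

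Slc22a7 (chr17:46432183-46438457, minus strand) encodes OAT2, which carries cyclic nucleotides, prostaglandins and other small organic anions. Its level was 29.3, 26.7, 41.5, 36.9, 32.7 and 42.8 CPM in the Ctrl mice. In the ABpIF/+ mice it was 0.415, 0.851, 2.82, 1.11, 1.34 and 0.546 CPM, which are 11 to 70 counts a mouse. In the ABpIF/F mice it was 5.97, 8.72 and 2.49 CPM. All ABpI mice lay far below all Ctrl mice, and only BG38 of the ABpIF/F mice fell into the ABpIF/+ range. Slc22a7 fell by 4.90 on the log2 scale in ABpIF/+ vs Ctrl (SE 0.42, edgeR adjusted p = 7.84e-07), a 29.7-fold difference of the means. It fell by 2.62 in ABpIF/F vs Ctrl (SE 0.48, edgeR adjusted p = 0.00142), a call lost with the strain label (-2.23, edgeR adjusted p = 0.0497) and with the clock score (-2.52, adjusted p = 0.0444) as a covariate. Slc22a7 was also lower in ABpIF/+ than in ABpIF/F livers, with a log2 fold change of -2.28 (SE 0.46, edgeR adjusted p = 0.00306). That difference missed the threshold without BG183 (log2 fold change -2.24, edgeR adjusted p = 0.0110), without BG90 (-1.84, edgeR adjusted p = 0.0215), with only these 2 groups in the fit (-2.29, edgeR adjusted p = 0.0110) and with the clock score as a covariate (-2.38, edgeR adjusted p = 0.104).

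Slc51b (chr9:65412714-65422955, minus strand), the OSTbeta subunit, was barely detected, with 1 to 43 counts a mouse. It was 1.60, 0.943, 0.777, 0.385, 0.0311 and 0.261 CPM in the Ctrl mice, 0.0755, 0.580, 0.645, 0.626, 0.863 and 0.580 CPM in the ABpIF/+ mice and 1.01, 0.393 and 0.277 CPM in the ABpIF/F mice. All 3 groups overlapped. The log2 fold changes were -0.23 (95% interval -1.46 to 1.00) in ABpIF/+ vs Ctrl and -0.24 (95% interval -1.75 to 1.27) in ABpIF/F vs Ctrl, and neither was called. With few counts and a wide spread among mice, these intervals leave a difference in either direction possible. Without malpa387 both log2 fold changes changed sign, to 0.25 and 0.24. Slc51a, the partner subunit that the exporter needs, had at most 1 count in any mouse, at or under 3 counts in every group, so no fold is given.

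**Figure D2:**
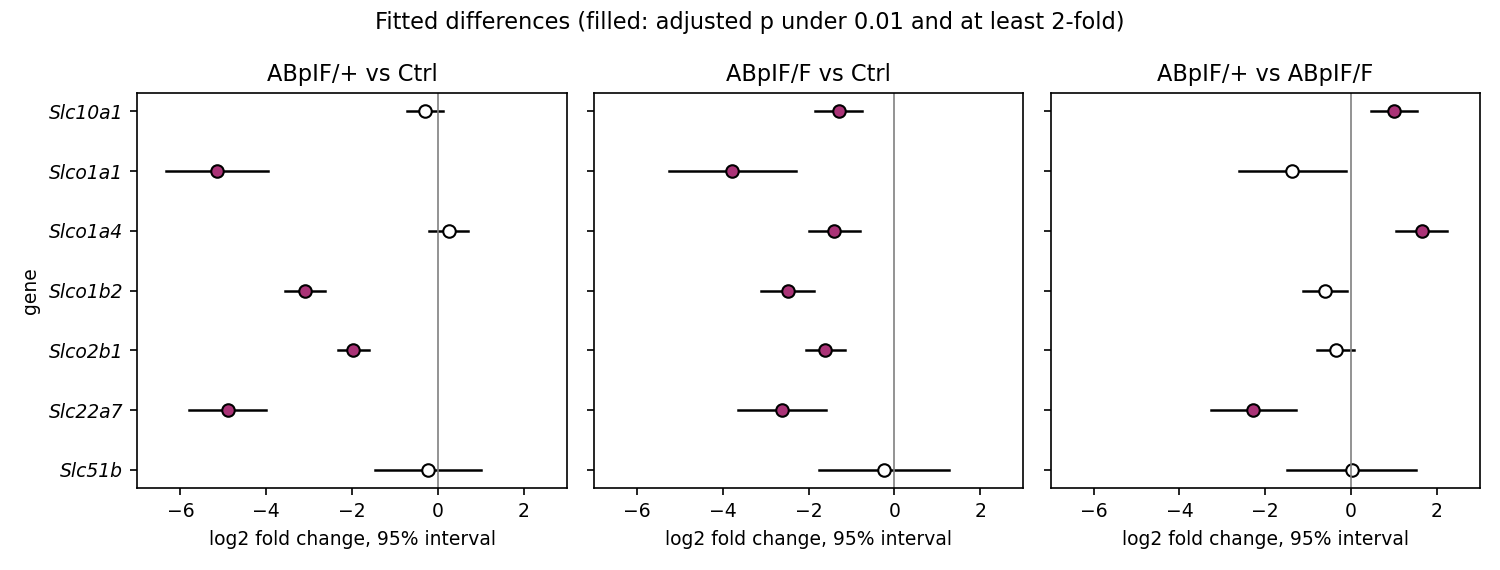
Log2 fold change (points) with its 95% interval (lines) for the 7 genes in the 3 comparisons, from 1 edgeR fit. Filled points passed an adjusted p of 0.01 and a 2-fold change: 4 genes in ABpIF/+ vs Ctrl, 6 in ABpIF/F vs Ctrl and 3 in ABpIF/+ vs ABpIF/F.

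In ABpIF/+ vs Ctrl 4 of the 7 genes passed the threshold (adjusted p under 0.01 and at least 2-fold), all lower: Slco1a1, Slco1b2, Slco2b1 and Slc22a7. Of all 27179 genes 5.35% were called lower in this comparison, and 9.39% of the 12316 genes whose mean reached 1 CPM. The same 4 genes, and no other of the 7, had all ABpIF/+ mice below all Ctrl mice, as did 8.13% of all genes and 15.8% of those reaching 1 CPM. The median log2 fold change of the 7 was -1.97, beside 0.02 over those 12316 genes. In ABpIF/F vs Ctrl 6 of the 7 genes passed, all lower, where 2.38% of all genes and 5.04% of those reaching 1 CPM did. The median of all 7 genes was -1.61, beside -0.00077 over the 12316 genes. The same 6 genes had all ABpIF/F mice below all Ctrl mice, as did 7.85% of all genes and 16.5% of those reaching 1 CPM. In ABpIF/+ vs ABpIF/F Slc10a1 and Slco1a4 were higher, where 1.76% of all genes and 3.72% of those reaching 1 CPM were called higher. Slc22a7 was lower, where 5.49% and 8.50% were called lower. Slc10a1 and Slco1a4 had all ABpIF/+ mice above all ABpIF/F mice, as did 9.15% of all genes and 19.2% of those reaching 1 CPM. The 7 genes were chosen with earlier results of these data known, so their counts beside the shares of all genes are a description and not a test. Both comparisons with Ctrl use the same 6 Ctrl mice. The count for ABpIF/F rested on few mice and on the covariates: it was 3 (Slco1b2, Slco2b1 and Slc22a7) without BG90 or without BG38, 2 (Slco1b2 and Slco2b1) with the strain label as a covariate, which leaves 1 Ctrl mouse with the label of the ABpI mice, and 1 (Slco1b2) with the clock score as a covariate. The 4 genes called in ABpIF/+ vs Ctrl were called in the fits with either covariate. The higher Slc10a1 of ABpIF/+ vs ABpIF/F (log2 fold change 1.01, SE 0.26, edgeR adjusted p = 0.00741) lay at the threshold and was called in 7 of 27 alternatives and lost in 20. Its log2 fold change was 0.87 with library size only, 0.38 with the clock score as a covariate (edgeR adjusted p = 0.695), 1.01 with the strain label, where the adjusted p rose just past the threshold, and 0.68 to 1.56 when 1 mouse was left out.

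**Figure D3:**
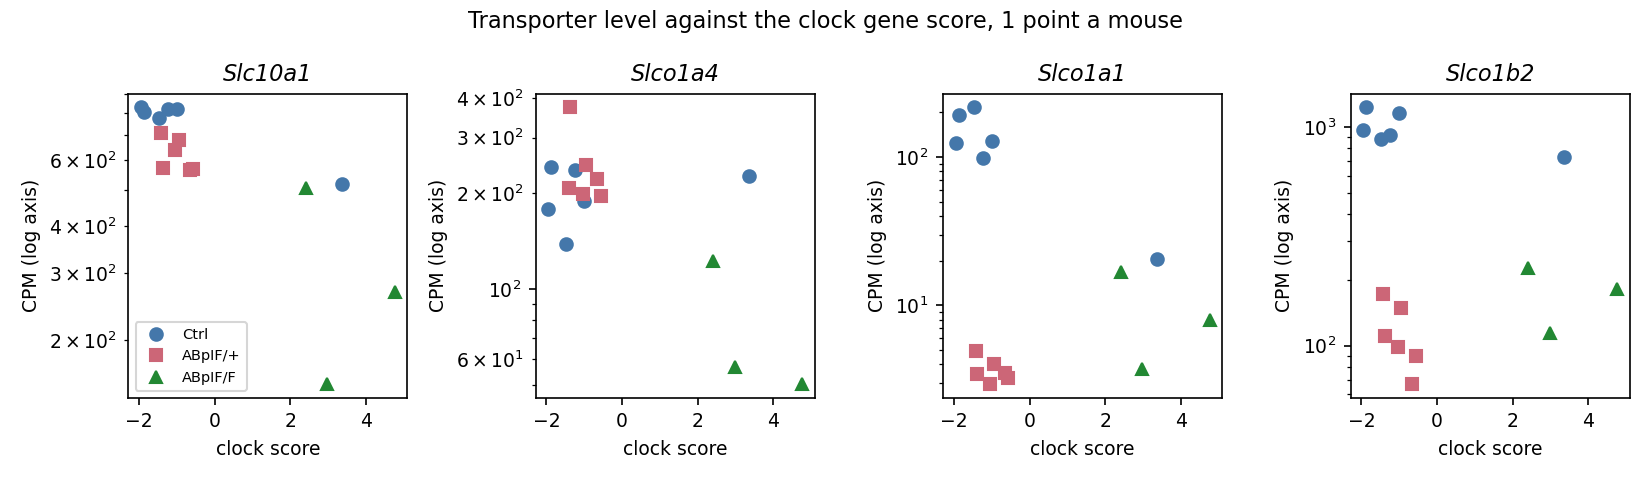
CPM (log axis) of Slc10a1, Slco1a4, Slco1a1 and Slco1b2 against the clock score (positive-arm minus negative-arm clock genes, mean centred log2 CPM), 1 point a mouse. The Ctrl mouse malpa387, with a score of 3.37, is the lowest Ctrl mouse for Slc10a1, Slco1a1 and Slco1b2 and not for Slco1a4.

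The mix of transcripts of the 7 genes shifted along with their total. Summed over the 7 genes, the level was 654 ± 99.3 CPM per kb (SD, n = 6) in Ctrl, 354 ± 35.9 (SD, n = 6) in ABpIF/+ and 205 ± 105 (SD, n = 3) in ABpIF/F livers. Slc10a1 made up 52.9% ± 3.02 of that sum in Ctrl, 79.8% ± 3.17 in ABpIF/+ and 67.0% ± 4.81 in ABpIF/F livers (SD), and the ranges of the 3 groups, 48.8% to 56.5%, 73.7% to 82.4% and 63.2% to 72.4%, did not overlap. Slco1b2 made up 30.4% ± 2.48 in Ctrl, 6.44% ± 1.57 in ABpIF/+ and 18.5% ± 3.48 in ABpIF/F livers, again without overlap. The share of Slco1a4 was 4.96% ± 1.51 in Ctrl and 10.7% ± 3.01 in ABpIF/+ livers, the groups lying apart at up to 7.57% and from 8.10%. The order of levels therefore changed: Slco1a4, at 37.5 CPM per kb, came after Slc10a1 in ABpIF/+ livers, with Slco1b2 at 23.2, although their ranges (30.6 to 58.2 and 13.5 to 34.9) overlapped. In ABpIF/F livers Slco1b2 at 35.4 CPM per kb (23.2 to 46.1) lay above Slco1a4 at 11.9 (7.83 to 19.1). Shares of a sum are tied to each other, so a lower Slco1b2 raises the share of Slc10a1. No test was run on them. In whole liver RNA, fewer cells of a type and less RNA per cell cannot be told apart.

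**Figure D4:**
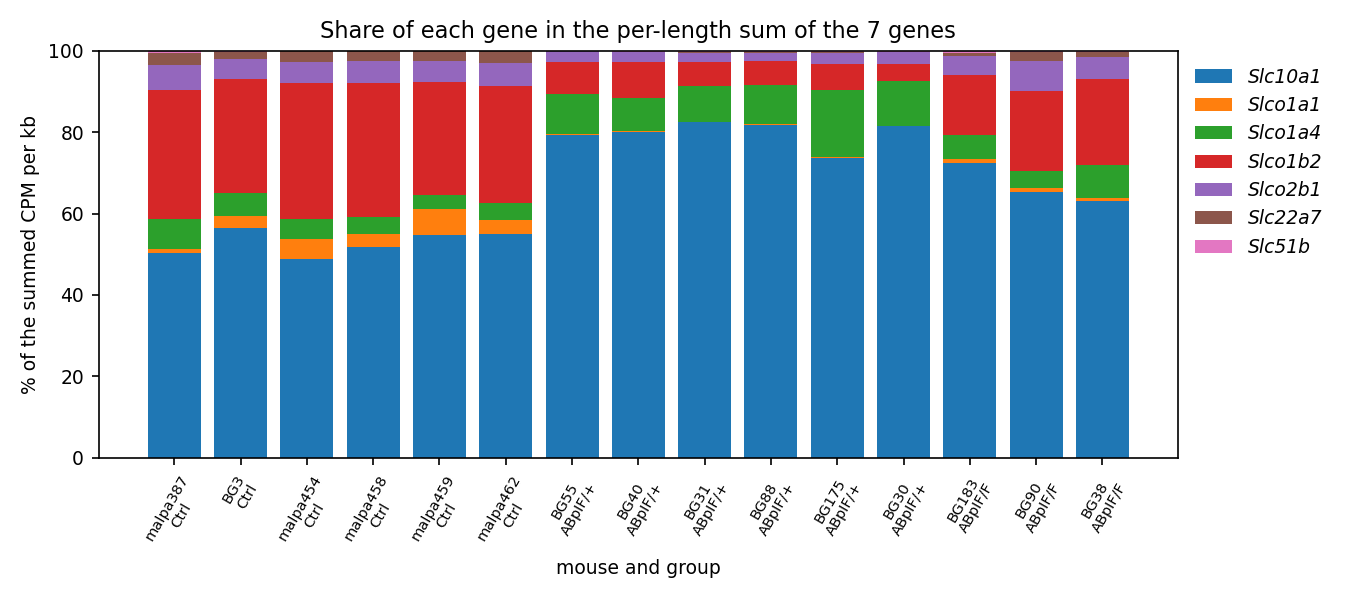
Share (%) of each of the 7 genes in the sum of their CPM per kb, 1 bar a mouse. Slc10a1 (lowest segment) spans 48.8% to 56.5% in Ctrl, 73.7% to 82.4% in ABpIF/+ and 63.2% to 72.4% in ABpIF/F mice.

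Across the 15 mice, the levels of Slco1a1, Slco1b2, Slco2b1 and Slc22a7 ran alongside each other, with Pearson r of log2 CPM from 0.90 to 0.98, whereas Slco1a4 had r of 0.78 with Slc10a1 and of -0.10 to 0.17 with those 4. The points share the 15 libraries and the 3 groups, so r includes the group differences. Of 9535 genes averaging 5 CPM or more, the most alike to Slco1b2 were Acsm1 (r = 0.99) and Npr2 (r = 0.99), and to Slco2b1 Enpep (r = 0.99) and Acsm1 (r = 0.98). Those most alike to Slco1a1 were Slc26a1 and Mup11 (r = 0.98 each), to Slc22a7 Slc22a30 and Lect2 (r = 0.97 each), to Slc10a1 Shpk (r = 0.96) and Got2 (r = 0.95), and to Slco1a4 Afmid (r = 0.93) and Faah (r = 0.91). For Slc51b the highest were Ngrn and Tmem167b (r = 0.77 each), low values for a gene of few counts.

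Other genes of the same families and of bile acid handling were counted by lists. For the comparisons with Ctrl, the shares of all genes given above are of genes called lower. No such share is given for genes called higher, so counts called higher vs Ctrl, here and below, cannot be set against all genes. Of 13 other OATP genes, 11 had a mean under 1 CPM, and 1 was called lower in ABpIF/+ and 0 in ABpIF/F vs Ctrl, with 1 lower in ABpIF/+ than in ABpIF/F livers. That gene was Slco3a1, at 4.81 CPM in Ctrl, 1.92 in ABpIF/+ and 7.85 in ABpIF/F livers (log2 fold change -1.32, edgeR adjusted p = 1.43e-04 in ABpIF/+ vs Ctrl). Of 6 other SLC10 genes, Slc10a6, a carrier of steroid sulfates, rose from 0.234 CPM in Ctrl to 7.83 in ABpIF/+ (log2 fold change 5.05, SE 0.64, edgeR adjusted p = 2.79e-05) and 4.86 in ABpIF/F livers (log2 fold change 4.37, SE 0.69, edgeR adjusted p = 3.84e-04), while Slc10a5 was called lower in ABpIF/+ livers, at 15.3 against 57.8 CPM. Of 19 other SLC22 genes 6 were called lower in ABpIF/+ vs Ctrl and 0 higher, and in ABpIF/F vs Ctrl 6 lower and 1 higher. Slc22a30 averaged 151 CPM in Ctrl, 14.3 in ABpIF/+ and 47.8 in ABpIF/F livers, and it was called lower in both ABpI groups, as was Slc22a3. Slc22a5, the carnitine carrier OCTN2, was called in ABpIF/F alone, at 10.0 against 30.9 CPM in Ctrl, with -0.90 in ABpIF/+ vs Ctrl, under 2-fold.

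On the canalicular and efflux side, 2 of 12 export genes were called lower in both ABpI groups vs Ctrl, and 1 was called higher in ABpIF/+ and 0 in ABpIF/F. Abcb11, the bile salt export pump, averaged 781 ± 150 CPM in Ctrl, 111 ± 26.6 in ABpIF/+ and 336 ± 141 in ABpIF/F livers (SD, n = 6, 6 and 3). It fell by 2.81 in ABpIF/+ vs Ctrl (SE 0.20, edgeR adjusted p = 6.83e-10) and by 1.22 in ABpIF/F vs Ctrl (SE 0.24, edgeR adjusted p = 9.34e-04), and it was lower in ABpIF/+ than in ABpIF/F livers (log2 fold change -1.59, edgeR adjusted p = 3.49e-05). Abcb4, the phospholipid flippase of bile, averaged 270 CPM in Ctrl and 111 and 108 CPM in the ABpI groups. Abcc4, a basolateral exporter of bile acids and cyclic nucleotides, rose from 6.51 to 20.6 CPM in ABpIF/+ livers (log2 fold change 1.66, edgeR adjusted p = 0.00603), and was at 9.39 CPM in ABpIF/F livers (log2 fold change 0.53, edgeR adjusted p = 0.595).

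Of 13 genes of bile acid synthesis and conjugation, 6 were called lower in ABpIF/+ vs Ctrl and 9 in ABpIF/F vs Ctrl, and 0 higher in either. Their median log2 fold changes were -0.97 and -1.17. Cyp7a1, the rate-limiting enzyme, averaged 294 CPM in Ctrl, 47.6 in ABpIF/+ and 8.62 in ABpIF/F livers (log2 fold changes -2.63 and -5.09, edgeR adjusted p = 0.00344 and 0.00111). Cyp8b1, the sterol hydroxylase for cholic acid, averaged 163 CPM in Ctrl, 2.60 in ABpIF/+ and 9.61 in ABpIF/F livers, and neither gene passed the threshold between the ABpI groups (edgeR adjusted p = 0.0384 and 0.0319). Cyp27a1, the mitochondrial enzyme of the alternative route, was called lower in ABpIF/F (101 against 571 CPM in Ctrl) and stood at 321 CPM in ABpIF/+ livers. The difference between the ABpI groups was 1.68 (SE 0.18, edgeR adjusted p = 2.63e-06). Of 19 sensors and regulators of these transporters 3 were called lower in ABpIF/+ and 4 in ABpIF/F vs Ctrl. They include Ghr, the growth hormone receptor, at 527, 186 and 142 CPM, and Prlr, the prolactin receptor, at 431, 163 and 142 CPM. Nr1i3, the xenobiotic receptor CAR, and Ppara, the fatty acid sensor, were called lower in ABpIF/F and not in ABpIF/+ vs Ctrl, and both were higher in ABpIF/+ than in ABpIF/F livers, by log2 fold changes of 1.06 each (edgeR adjusted p = 0.00327 and 0.00811).

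**Figure D5:**
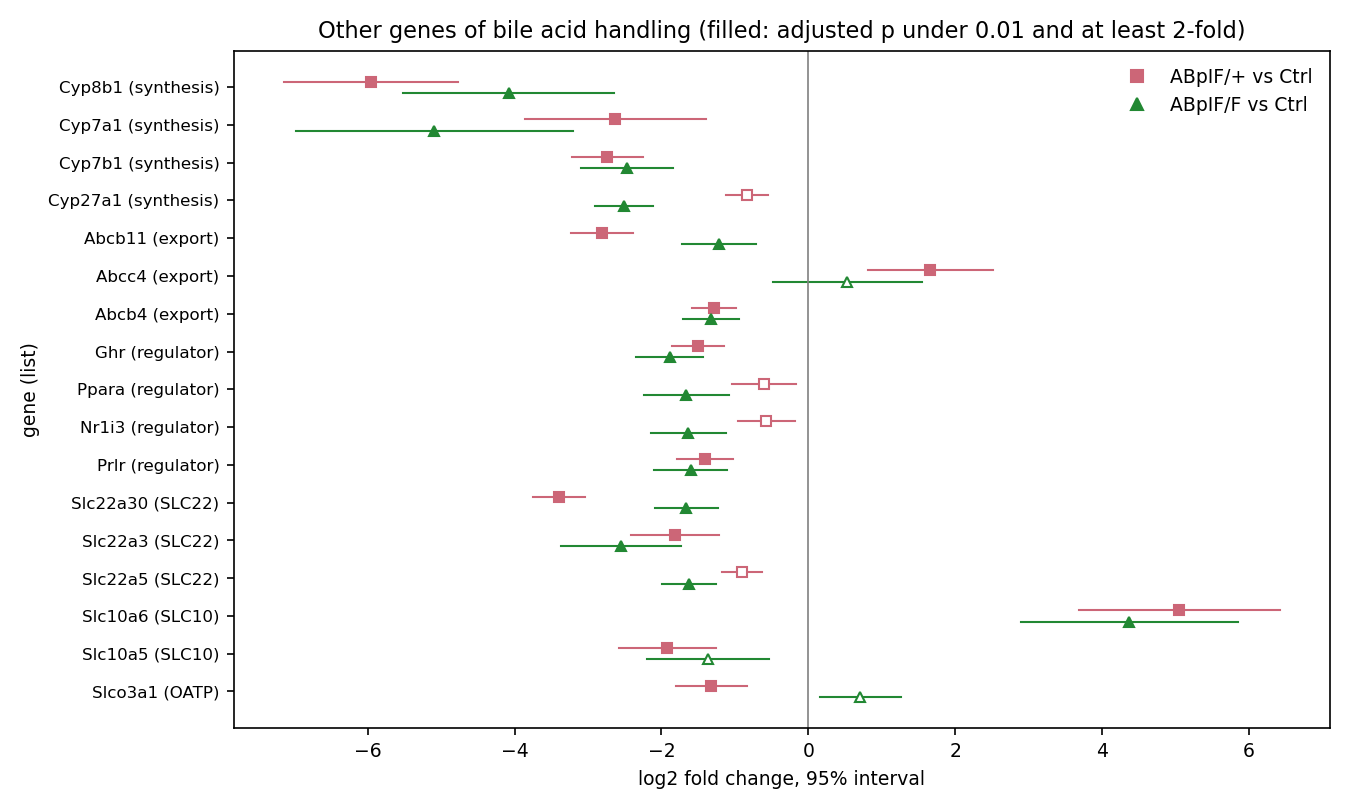
Log2 fold change with its 95% interval in ABpIF/+ vs Ctrl (squares) and ABpIF/F vs Ctrl (triangles) for the other named genes of bile acid handling, filled where called. Cyp8b1 fell furthest in ABpIF/+ (-5.96) and Cyp7a1 in ABpIF/F livers (-5.09), and Slc10a6 rose in both.

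Markers of other cell types moved with the groups too. Of 15 hepatocyte markers 1 was called lower and 2 higher in ABpIF/+ vs Ctrl, and 2 lower and 2 higher in ABpIF/F vs Ctrl. The median log2 fold changes of the list were 0.29 and -0.09. Cholangiocyte markers, which have their own bile acid carriers, summed to 62.7 to 108 CPM in Ctrl, 72.5 to 189 in ABpIF/+ and 260 to 1214 in ABpIF/F livers. Of these 12 genes 2 were called lower and 2 higher in ABpIF/+, and 7 higher in ABpIF/F vs Ctrl, with no share of all genes called higher to set beside them. Spp1, osteopontin, made up most of the sum in ABpIF/F livers, at 43.8 CPM in Ctrl, 66.9 in ABpIF/+ and 660 (175 to 1081) in ABpIF/F livers. The other 11 markers summed to 27.6 to 72.1, 53.9 to 72.7 and 84.6 to 133 CPM, among them the duct cell factor Sox9 at 2.96, 18.2 and 38.7 CPM. Krt19 and Epcam, which define bile duct cells, averaged 1.42 and 1.98 CPM in Ctrl, 0.612 and 1.59 in ABpIF/+ and 3.03 and 6.36 in ABpIF/F livers. Krt19 was called lower in ABpIF/+ vs Ctrl (log2 fold change -1.21, edgeR adjusted p = 0.00912) and Epcam higher in ABpIF/F vs Ctrl (1.69, adjusted p = 0.00271), where Krt19 did not pass (1.10, adjusted p = 0.0431). Stellate cell and fibroblast markers summed to 241 to 311 CPM in Ctrl, 66.0 to 139 in ABpIF/+ and 263 to 428 in ABpIF/F livers. Of these 14 genes 9 were called lower in ABpIF/+ vs Ctrl and 1 higher in ABpIF/F vs Ctrl. Macrophage and Kupffer cell markers summed to 445 to 618, 190 to 332 and 384 to 953 CPM, with 8 of 15 called lower and 2 higher in ABpIF/+ vs Ctrl and 2 higher in ABpIF/F vs Ctrl. Endothelial markers summed to 317 to 443, 158 to 360 and 344 to 494 CPM, with 2 of 14 called lower in ABpIF/+ and 1 higher in ABpIF/F vs Ctrl. Lymphocyte markers summed to 6.12 to 9.89, 1.55 to 4.61 and 7.72 to 21.0 CPM, 4 of 14 being called lower in ABpIF/+ and 1 higher in ABpIF/F vs Ctrl. Red blood cell markers summed to 32.7 to 151, 73.6 to 239 and 63.9 to 115 CPM, with 1 of 7 called higher in ABpIF/+. Their part in the transporter differences was not tested. Of the clock lists, 1 of 5 positive-arm and 1 of 11 negative-arm genes were called higher in ABpIF/+ vs Ctrl, and 5 negative-arm genes lower in ABpIF/F vs Ctrl, among them Usp2 at 65.9 CPM in Ctrl and 0.878 in ABpIF/F livers.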

How the data were processed

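RNA was extracted from frozen liver with Trizol, and stranded mRNA libraries were sequenced as read pairs. Per the study's methods and the submitters' notes, the authors trimmed reads, used HISAT2 for alignment to mm10 and featureCounts 2.0.8 for counting; the annotation and strand setting are not given in the sources used here. The deposited values are raw read counts of 27179 genes in 15 columns, 1 per mouse, assigned by mouse name (23 samples are listed, 8 mice being named by 2). Columns holding the authors' own fold changes and p-values were not used.

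Counts were fitted in R 4.3.3 with edgeR 4.0.16 (TMM, robust dispersions, quasi-likelihood F-test in its older form, all genes and 3 groups in 1 model), with Benjamini-Hochberg adjustment over all genes. Called genes had an adjusted p below 0.01 and changed at least 2-fold. On simulated data for ABpIF/+ vs Ctrl with 27179 genes, 200 of 200 changed genes were recovered and 0 unchanged ones called. The changes put in were at least 4-fold and in genes of at least 1 CPM. Recovery nearer the 2-fold limit, in genes of fewer counts or with the 3 ABpIF/F mice was not simulated. Each simulated gene had the dispersion typical of its level, so genes that vary more between mice were not simulated either. Alternatives included DESeq2 1.42.0, other scaling, covariates and leaving out each mouse. Positions and exon lengths came from GENCODE M21. The 7 genes and all lists were chosen with earlier results of these data known. From each list, up to 4 called genes with the largest change and at least 5 CPM in a group were picked (2 for markers and clock). The genes named here, beside Slc51a, are a part of those picked, and many picked genes are not named. The other Slco1 cluster genes, Krt19 and Epcam were chosen after their values were seen. Of the list genes 1 was not used here.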

Additional observations from a re-analysis of the deposited data

Results flagged for a closer look

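In 14 pairs of a gene and a group of 6 mice, the distance of the highest or lowest mouse from its nearest neighbour was set against the range of the group by Dixon's test, and 3 stood apart. Chance gives about 1 in 20. Slc10a1 in the Ctrl mouse malpa387 was 517 CPM, with the next Ctrl mouse at 774. This is the mouse whose clock score of 3.37 lay among those of the ABpIF/F mice. Slco1a4 in the ABpIF/+ mouse BG175 was 373 CPM, with the next at 245. Slc51b in the ABpIF/+ mouse BG55 was 0.0755 CPM, from 2 counts.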

How the results depend on the processing

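The 4 genes called in ABpIF/+ vs Ctrl (Slco1a1, Slco1b2, Slco2b1 and Slc22a7) were called in 26 of 27 alternatives. The exception was a threshold of 4-fold (2 on the log2 scale), which left 3. In ABpIF/F vs Ctrl the count of 6 became 3 with that threshold, 2 with the strain label and 1 with the clock score as a covariate, and 3 to 6 when 1 mouse was left out (3 without BG90 or BG38). In ABpIF/+ vs ABpIF/F the count of 3 became 1 with that threshold, 1 with only the 2 groups compared and 1 with the clock score, and 1 to 3 when 1 mouse was left out (1 without BG90). With the clock score Slc10a1, Slco1a4 and Slc22a7 were all lost, and the 1 gene called was Slco1a1, which the main fit did not call. The cause was not tested. Slc51b, which was never called, changed sign: in ABpIF/+ vs ABpIF/F its log2 fold change was -0.00022 with RLE factors, -0.13 with library size only, -0.060 with upper quartile factors, -0.0046 with 2 groups and -0.0056 with DESeq2, and -0.32 to 0.75 when 1 mouse was left out. In ABpIF/+ vs Ctrl it was 0.019 with the clock score, and -0.49 to 0.25 when 1 mouse was left out, and in ABpIF/F vs Ctrl -0.98 to 0.24. No paired analysis was possible because the groups are different mice, and replicate numbers, given in accession order, only name a mouse. Depth limits Slc51b, with 1 to 43 counts a mouse.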

Other observations

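Other lists of hepatocyte genes gave the following counts. They share some genes with the lists above: Cyp27a1 with bile acid synthesis, and Cyp2e1 and Cps1 with the hepatocyte markers. Of 16 genes of hepatocytes around the central vein, 10 were called lower in ABpIF/+ and 11 in ABpIF/F vs Ctrl, and 0 higher. They include Cyp1a2, a drug-metabolizing enzyme, at 648 CPM in Ctrl, 68.3 in ABpIF/+ and 117 in ABpIF/F livers, and Oat, ornithine aminotransferase, at 1014, 311 and 134 CPM. Of 15 genes of hepatocytes around the portal vein, 3 were called lower and 4 higher in ABpIF/+ vs Ctrl, and 6 lower and 2 higher in ABpIF/F vs Ctrl. Cyp2f2 and Etnppl, which had the largest changes of this list, were at 918, 30.6 and 75.0 CPM and at 115, 12.7 and 3.90 CPM. Asl, a urea cycle enzyme, was at 635, 939 and 152 CPM, and Hsd17b13, a lipid droplet protein, at 254, 1289 and 595 CPM. Of 11 genes induced through PXR or CAR, 4 were called lower in ABpIF/+ and 5 in ABpIF/F vs Ctrl. Aldh1a1, a retinal dehydrogenase, averaged 660, 85.0 and 170 CPM.

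Sex-biased liver genes were counted because Slco1a1 and Slco1a4 are known for opposite sex bias, and all 15 mice were female. Of 15 male-biased genes 7 were called lower and 1 higher in ABpIF/+ vs Ctrl, and 5 lower and 2 higher in ABpIF/F vs Ctrl. Of 20 female-biased genes 5 were called lower and 2 higher in ABpIF/+ vs Ctrl, and 9 lower and 1 higher in ABpIF/F vs Ctrl. In ABpIF/+ vs ABpIF/F 3 male-biased genes were called lower and 0 higher, and 1 female-biased gene lower and 6 higher. Nudt7, a male-biased peroxisomal hydrolase, averaged 267 CPM in Ctrl, 21.9 in ABpIF/+ and 48.5 in ABpIF/F livers. Mup20, also male-biased, averaged 28.0 CPM in Ctrl, 9.74 in ABpIF/+ and 116 in ABpIF/F livers. A1bg, a female-biased secreted protein, averaged 1457 CPM in Ctrl, 108 in ABpIF/+ and 0.499 in ABpIF/F livers.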
